A study of Mus musculus with 3 samples.

Results

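Heat-shock proteins and their J-domain partners are the chaperones that help newly made or damaged proteins to fold. The set described here holds the 74 protein-coding mouse genes whose symbols start with Hspa, Hspb, Hspd, Hspe, Hsph, Hsp90, Dnaja, Dnajb or Dnajc, of 21900 protein-coding genes in the RefSeq annotation of mm10. They were chosen by symbol, with earlier results of these data known, so their values are given as a description and without tests. The symbol rule also takes in Hspbp1, a co-chaperone gene, and Hspbap1, whose product binds a small heat-shock protein. It leaves aside 16 pseudogenes.

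Suprabasal keratinocytes, which have left the proliferating basal layer and are differentiating, came from wild-type BALB/c mice. The labels give the animals as adult, and the series text as neonatal with a Percoll density gradient for the isolation. Chromatin was immunoprecipitated and sequenced (ChIP-seq) with antibodies to DLX3 (a homeodomain protein that regulates genes of the differentiating epidermis), to H3K4me3 (a histone mark of active promoters) and with IgG, 1 library each. The DLX3 list holds 18087 peaks (median width 627 bp) and the H3K4me3 list 16735 (median width 2080 bp). Each peak has a deposited score, taken as its strength within its own list (median 83.35 for DLX3, lowest 50.01). No peak list of the IgG library was analysed here, so the signal that IgG gives at these genes is not known. With 1 library per antibody there is no replicate spread, and read depth is unknown.

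As background, Hsp70 proteins (Hspa genes) hold unfolded protein chains in a cycle driven by ATP, J-domain proteins (Dnaja, Dnajb and Dnajc genes) deliver the chains and start the cycle, and Hsp110 proteins such as that of Hsph1 reset it. Hsp90 proteins mature signalling proteins, small heat-shock proteins (Hspb genes) hold aggregating proteins, and Hspd1 with Hspe1 forms the folding chamber of mitochondria. Heat and other protein damage release the factor HSF1, which binds heat-shock elements in DNA and induces part of these genes within minutes. Damage in the endoplasmic reticulum (ER) induces others through the unfolded protein response. The members were therefore split into 4 classes from textbook knowledge: 10 heat-inducible genes (Hspa1a, Hspa1b, Hsp90aa1, Hsph1, Dnajb1, Hspb1, Dnaja1, Hspd1, Hspe1 and Dnajb4), 6 genes of ER stress (Hspa5, Hsp90b1, Dnajb9, Dnajb11, Dnajc3 and Dnajc10), 14 genes used mainly in testis, muscle or brain, and the 44 others, taken as constitutive. The last class is what remained, so it can hold genes with some inducibility, Hspa8 and Hspb8 among them. Inducible genes without a DLX3 peak may also be in it, and the inducibility of Dnaja4 and Dnajb5, for example, was not assessed. The split was made with earlier results of these data known, so the class counts below depend on how genes were assigned.

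With this split, the stress-inducible classes had DLX3 peaks at every member. A peak lay over the gene span with 5 kb on either side in 10 of 10 heat-inducible genes, 6 of 6 ER stress genes, 29 of 44 constitutive genes and 5 of 14 tissue-restricted genes, 50 of 74 in all. Over all protein-coding genes the share was 41.4%, and among genes with H3K4me3 within 1 kb of an end it was 61.3%. The constitutive share, 65.9%, was thus near that of marked genes in general. Of the 65 members with the mark, 48 had a DLX3 peak, as did 2 of the 9 without it (Hspb2 and Dnajc5b). The classes stood further apart in the strength and number of peaks. The highest score at each gene with a peak had a median of 352 in heat-inducible genes (117.17 to 2523.19), 113 in ER stress genes (54.85 to 353.23) and 145 in constitutive genes (51.24 to 503.91), against 102 over all protein-coding genes with a peak. The highest peak fell in the top 10% of the list by score (187 or more) for 9 of 10 heat-inducible, 1 of 6 ER stress, 8 of 44 constitutive and 1 of 14 tissue-restricted genes, and for 6.58% of all genes. Hspd1 and Hspe1 enter this count and the median through 1 shared peak (203.85), and Hspa1l enters the count through a peak of Hspa1a. At least 4 peaks lay at 6 of 10 heat-inducible genes, 0 of 6 ER stress genes, 3 of 44 constitutive genes (Hspa8, Hspb8 and Dnajc17) and 0 of 14 tissue-restricted genes, against 3.37% of all genes.

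**Figure D1:**
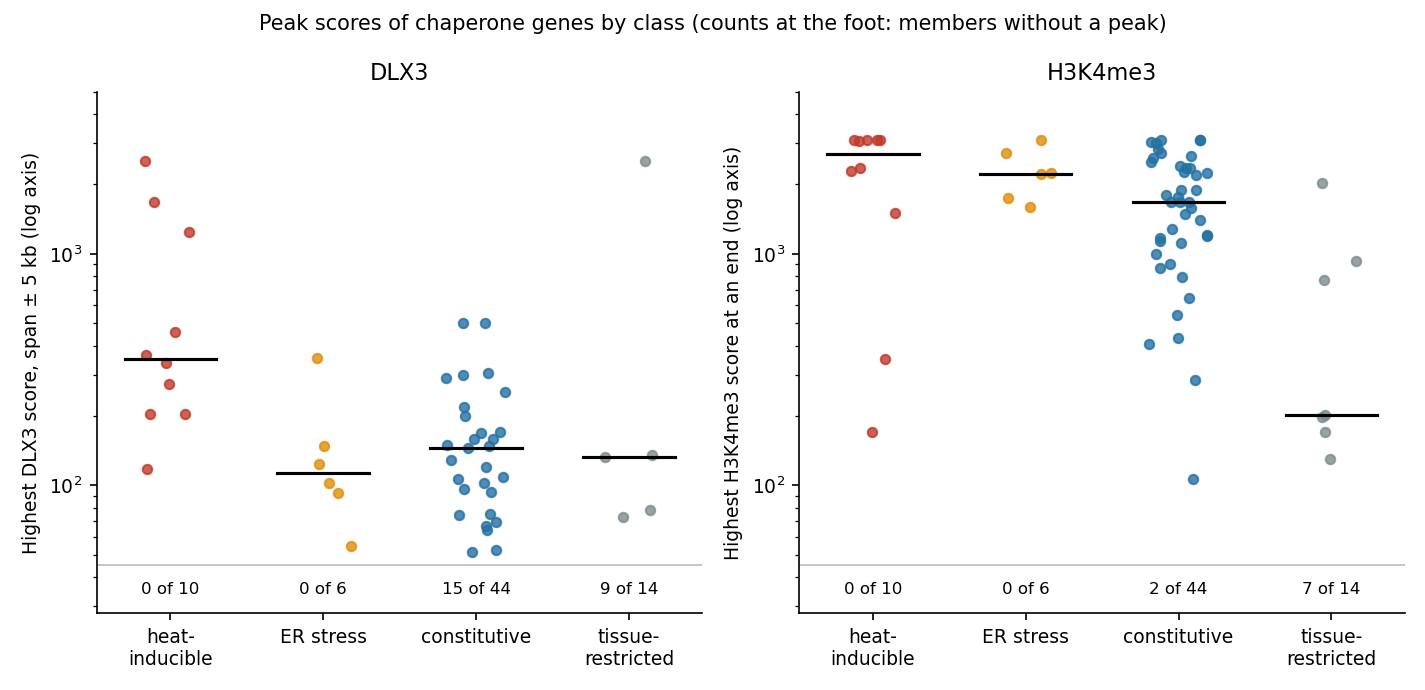
Highest DLX3 score over the span with 5 kb on either side (left) and highest H3K4me3 score within 1 kb of a gene end (right), on log axes, 1 point per member with a peak; bars are class medians and the counts at the foot are members without a peak. The heat-inducible DLX3 median is 352 and the constitutive one 145; the tissue-restricted point at 2523.19 is Hspa1l, which lies beside Hspa1a.

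Hspa1a and Hspa1b encode the inducible Hsp70, the classical heat-shock protein, and are near-identical neighbouring copies on chromosome 17. At both, the strong DLX3 peak lay at the finish of the gene, where transcription ends, and not at the start. At Hspa1a (minus strand, 34969359 to 34972156) the peak at chr17:34967220-34970200 scored 2523.19 and ranked 4 of all 18087 DLX3 peaks. It took in the last 842 bp of the span and ran 2139 bp past the finish. A peak of 65.01 lay 59 to 669 bp before the start, and further peaks of 87.15 and 377.21 lay 3072 and 4991 bp past the finish at their far edges. At Hspa1b (minus strand, 34956429 to 34959238) the peak at chr17:34954633-34957271 scored 1239.99, ranked 11 and ran 1796 bp past the finish, while the nearest peak before the start scored 70.91. Further peaks of 258.72 and 50.09 reached 2436 and 3918 bp before the start at their far edges. A peak of 187.47 reached 4319 bp past the finish and overlapped a separate H3K4me3 peak of 2375.73, centred 4537 bp past the finish. The finish peaks thus stood far above the start peaks at both genes.

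The rest of both gene bodies, on the side of the start, carried no peak in either list. The empty stretch was 1956 bp for DLX3 (69.9% of the span) and 1938 bp for H3K4me3 at Hspa1a, and 1967 bp (70.0%) and 1676 bp at Hspa1b. Reads from near-identical copies cannot always be placed, and the sources used here do not say how such reads were treated. Their part in the empty stretch, and in the low scores of the start peaks beside the finish peaks, was not tested. The 300-base promoter windows of the pair, from 250 bases before to 50 after the start, were identical at 296 of 300 bases. The first 250 bases of each are shown because they differ so little and because both hold a pair of heat-shock element units; counted from 1 at the 5′ end, the differences from Hspa1a to Hspa1b within them are C44T, T47C and T249G. Capitals mark the units of the heat-shock element that were found (GAANNTTC or TTCNNGAA).
Hspa1a, chr17:34972157-34972406, minus strand, GRCm38.p6: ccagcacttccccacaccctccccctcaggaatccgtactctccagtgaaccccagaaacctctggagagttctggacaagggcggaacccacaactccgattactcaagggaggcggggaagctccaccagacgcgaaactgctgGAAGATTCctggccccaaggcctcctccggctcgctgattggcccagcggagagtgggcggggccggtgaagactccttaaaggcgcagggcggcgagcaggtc
Hspa1b, chr17:34959239-34959488, minus strand, GRCm38.p6: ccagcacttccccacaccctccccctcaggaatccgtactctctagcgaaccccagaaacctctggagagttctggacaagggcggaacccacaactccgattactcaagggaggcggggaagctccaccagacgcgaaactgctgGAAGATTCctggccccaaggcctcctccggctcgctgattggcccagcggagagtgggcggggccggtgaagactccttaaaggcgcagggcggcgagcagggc

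Hsp90aa1, which encodes the inducible cytosolic Hsp90, had a DLX3 peak that ranked 6 in the list. It scored 1667.44 and spanned 6412 bp (chr12:110684739-110691150), of which 6297 bp lay past the finish. All 5000 bp past the finish were under peaks. A further peak of 507.41 (rank 64) covered the start, and peaks of 75.15 and 193.87 lay inside the gene. No strand is given for this gene in the sequence table, and the start was taken as the end that carries H3K4me3. Among 9095 genes with a known strand and H3K4me3 at exactly 1 end, that end was the start in 97.2%.

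Hsph1 and Dnajb1, which encode the inducible Hsp110 and the main inducible J-domain protein of the cytosol, were covered by DLX3 peaks along most of their length. Hsph1 (chromosome 5, 149616843 to 149636498, minus strand) had 13 peaks over the span and its flanks, with scores of 53.38 to 459.36, and they covered 12996 of its 19656 bp, or 66.1%. Its highest peak (chr5:149625663-149628736, 3074 bp) was centred 9299 bp from the start, inside the gene. H3K4me3 covered 11.4% of the same span and met 3 of the 13 DLX3 peaks. Dnajb1 (chromosome 8, 83608175 to 83612653, plus strand) had 6 peaks over the span and its flanks, and 3680 of its 4479 bp, or 82.2%, were covered. Its highest peak, 338.33, lay over the start, and the highest peak within 1 kb of its finish scored 235.31. A peak of 69.06 crossed the finish, and peaks of 75.33 and 59.65 followed, to 4107 bp past it.

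Hspb1, which encodes the small heat-shock protein Hsp25, had a peak of 277.5 at its start and a higher one, 366.43, at chr5:135889410-135891646, which began inside the gene and ended 2083 bp past the finish. The span of 1645 bp was covered to 16.4%. The remaining heat-inducible genes had peaks at the start and none within 1 kb of the finish. Dnaja1, a cytosolic J-domain gene, had 1 peak of 273.7, centred 3 bp from the start. Hspd1 and Hspe1, which lie head to head, shared 1 peak of 203.85 over both starts, and Hspd1 held another of 70.98 inside the gene. Dnajb4, a further cytosolic J-domain gene, had peaks of 95.95 and 77.54 at its start, 43 and 805 bp from an end of Fubp1, and 1 of 117.17 inside the gene. The heat-inducible class thus held 6 genes with peaks at the finish and 4 without.

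**Figure D2:**
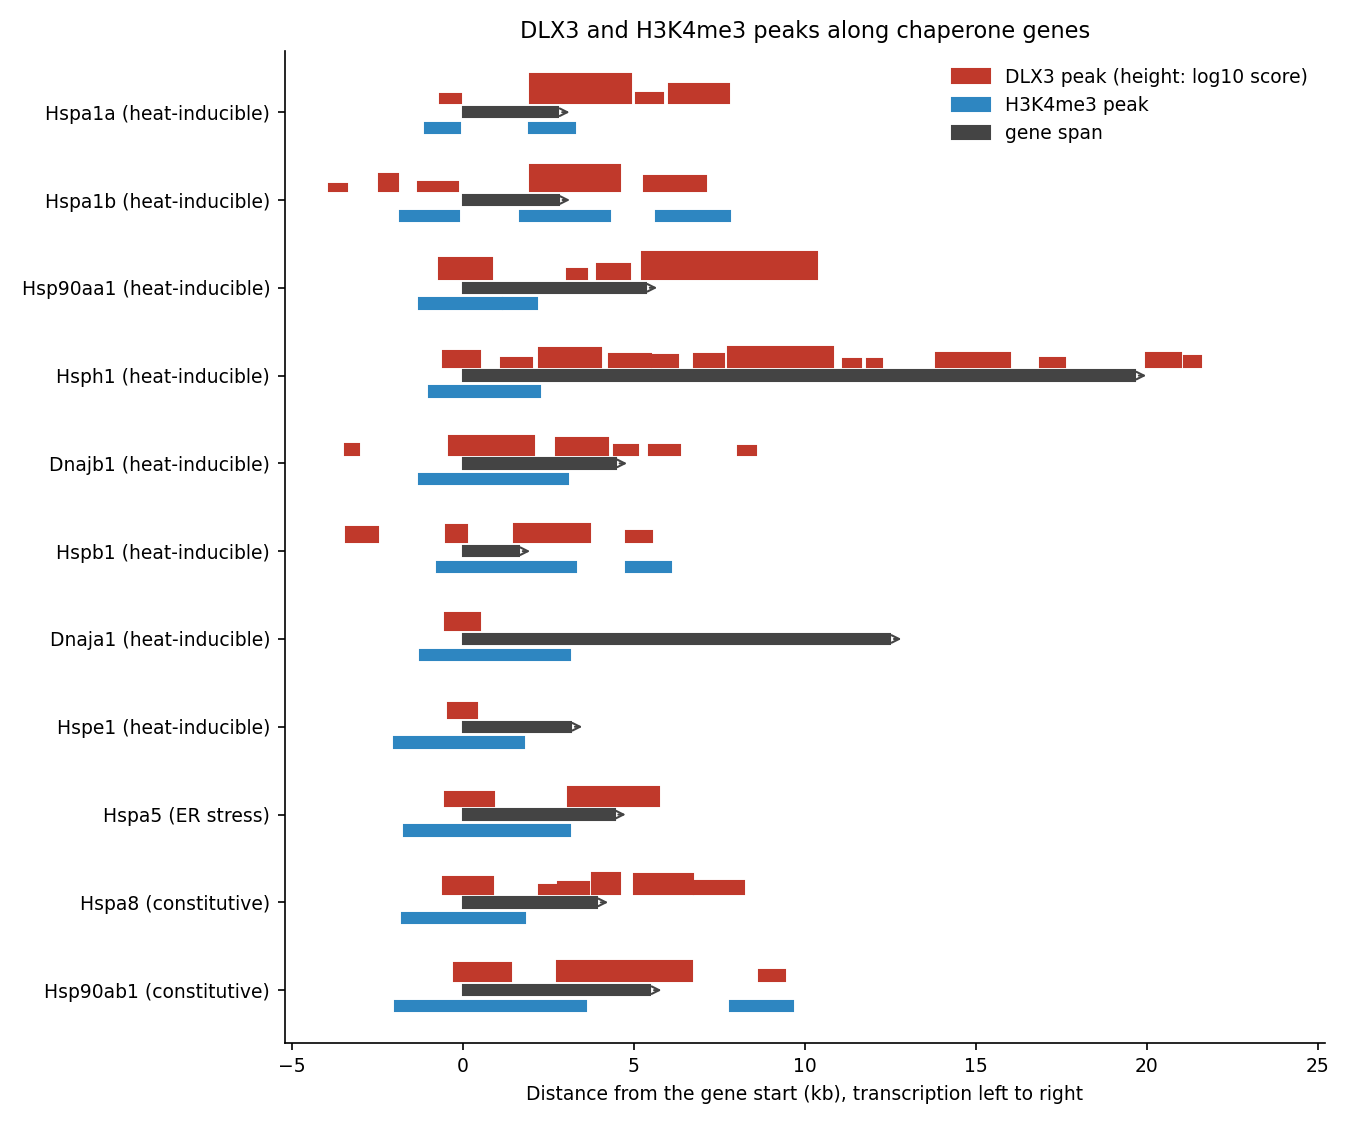
DLX3 peaks (red, height rising with log10 of the score and not from 0) and H3K4me3 peaks (blue) along 11 chaperone genes, in kb from the gene start with transcription from left to right; gene spans are dark bars and peaks are drawn to 5 kb beyond the span. The highest DLX3 peaks of Hspa1a, Hspa1b, Hsp90aa1, Hspb1, Hspa5, Hspa8 and Hsp90ab1 lie over or past the finish, while Dnaja1 and Hspe1 have start peaks only.

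A peak within 1 kb of the start was found in 10 of 10 heat-inducible genes, 6 of 6 ER stress genes, 24 of 42 constitutive genes and 2 of 12 tissue-restricted genes, counting the 70 members that could be oriented. Over all 19777 oriented protein-coding genes the share was 28.1%. A peak within 1 kb of the finish was found in 6 of 10 heat-inducible, 1 of 6 ER stress, 3 of 42 constitutive and 0 of 12 tissue-restricted genes, against 2.95% of all oriented genes. In a short gene the finish lies nearer to the start, and the median span was 4920 bp in heat-inducible and 24375 bp in constitutive genes. The finish counts were not matched for span length, so the part of length in them was not tested. The finish score exceeded the start score at 4 of 10 heat-inducible genes (Hspa1a, Hspa1b, Hsp90aa1 and Hspb1) and 1 of 6 ER stress genes (Hspa5). It also did so at 3 of 42 constitutive genes (Hspa8, Hsp90ab1 and Dnajb12) and 0 of 12 tissue-restricted genes. Over all oriented protein-coding genes this held for 386 of 19777, with a missing peak counted as 0. At Hsph1 the finish and start scores were 158.82 and 231.86.

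Signal past the finish followed the same genes. At least 1 kb of the 5 kb past the finish lay under DLX3 peaks in 6 of 10 heat-inducible genes (1506 bp at Hsph1 to 5000 bp at Hsp90aa1), in 1 of 6 ER stress genes, in 5 of 42 constitutive genes and in 1 of 12 tissue-restricted genes, and in 1.29% of all oriented genes. Of the constitutive 5, Dnajc14 and Dnajb14 were counted through peaks centred close to neighbours, 23 bp from an end of Ormdl2 and 195 bp from an end of Lamtor3. The tissue-restricted gene was Hspa1l, counted through a peak centred 276 bp from an end of Lsm2 and 2902 bp from its own finish. Of the 42 distinct DLX3 peaks at heat-inducible genes, 19 (45.2%) overlapped H3K4me3, as did 42 of 59 (71.2%) at constitutive genes and 42.1% of the whole DLX3 list. The heat-inducible share was thus near that of the whole list, and the constitutive share was above it. Of the 23 heat-inducible peaks outside H3K4me3, 10 were those of Hsph1.

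**Figure D3:**
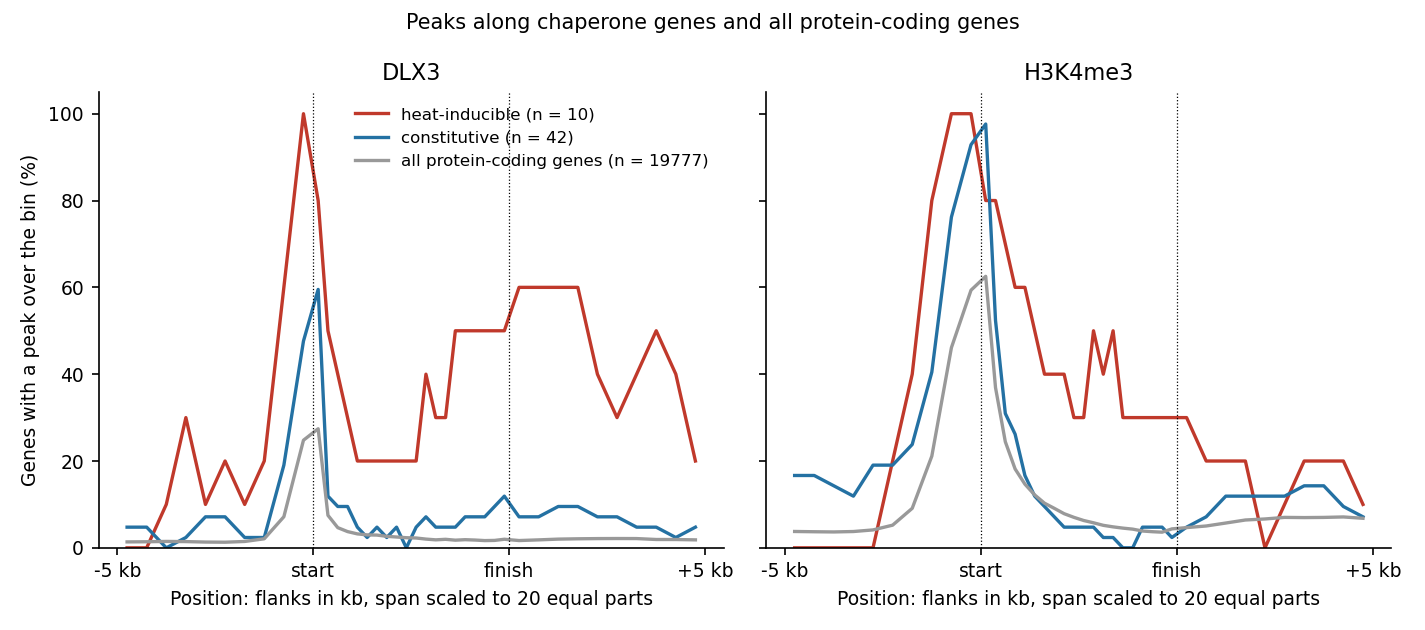
Share of genes with a DLX3 peak (left) or an H3K4me3 peak (right) over each bin from 5 kb before the start to 5 kb past the finish, for 10 heat-inducible, 42 constitutive and 19777 oriented protein-coding genes; the span is scaled to 20 equal parts and flanks are in bins of 500 bp. In the first bin past the finish 60.0% of heat-inducible genes, 7.14% of constitutive genes and 1.68% of all genes had a DLX3 peak.

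The share of the gene span under DLX3 peaks was 50% or more at 5 members and at 48 of all 21900 genes (0.219%). The 5 were Dnajb1 and Hsph1 of the heat-inducible class (2 of 10), Hspa5 (51.5%) of the ER stress class (1 of 6), and Hsp90ab1 (75.4%) and Hspa8 (61.9%) of the constitutive class (2 of 44). By this measure Dnajb1 ranked 8 and Hsp90ab1 11 among all genes. Hsp90aa1 stood just under 50% at 47.4%. Hspa1a, its empty stretch included, was covered over 842 bp (30.1%), and Hspa1b over 843 bp. Median cover was 23.2% of the span in heat-inducible genes, 3.23% in ER stress genes, 1.12% in constitutive genes and 0 in tissue-restricted genes. Short genes are covered more easily, and the median span was 4920 bp in heat-inducible and 24375 bp in constitutive genes. Among spans under 10 kb, 50% or more was covered in 1 of 6 heat-inducible and 2 of 9 constitutive genes, against 0.592% of all genes of that length, and 25% or more in 4 of 6 and 3 of 9, against 2.2%. Hsph1, at 19656 bp, was covered to 66.1% and was the only span of 10 kb or more among the 48, of which 47 were shorter.

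**Figure D4:**
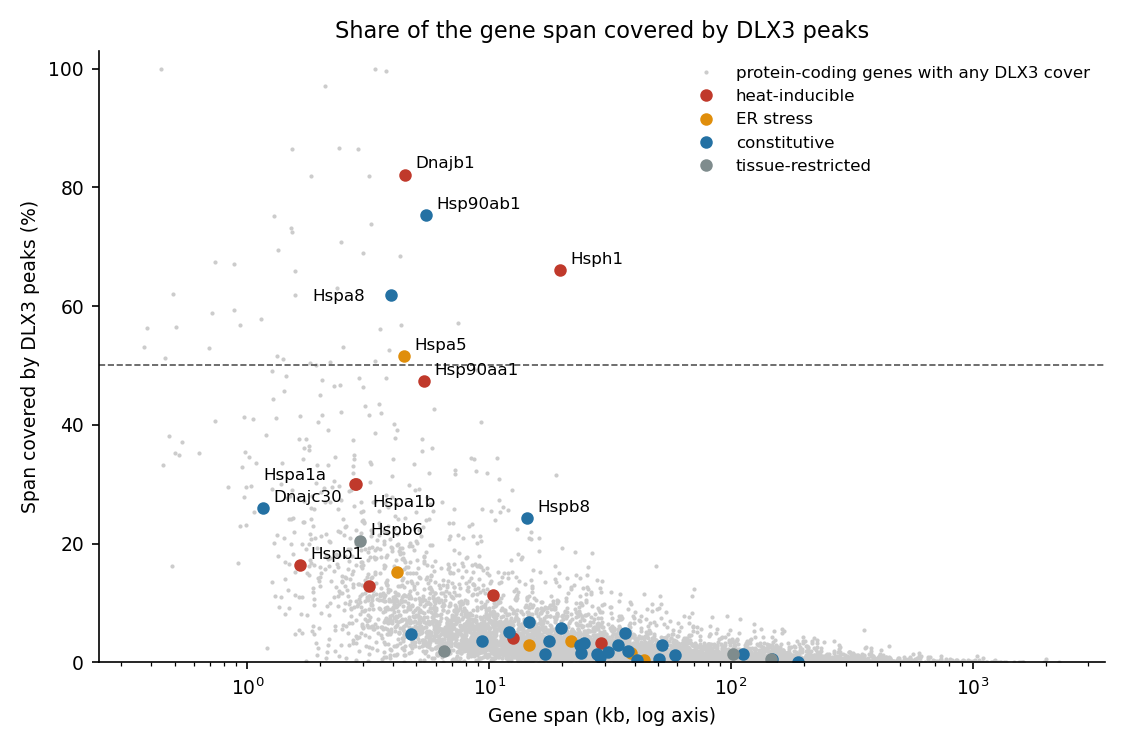
Share of the gene span covered by DLX3 peaks (percent) against span length (kb, log axis) for all protein-coding genes with any cover (grey) and for members by class; the dashed line is 50%. Members above the line are Dnajb1 (82.2%), Hsp90ab1 (75.4%), Hsph1 (66.1%), Hspa8 (61.9%) and Hspa5 (51.5%), with Hsp90aa1 just below.

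The constitutive paralogues Hspa8 and Hsp90ab1 also had their highest peak at the finish. Hspa8, the constitutive Hsp70 of the cytosol, had 6 peaks with scores of 62.79 to 502.25. The highest, at chr9:40805049-40805867, sat over the finish, and those that followed ran to 4294 bp past it. The inducible Hsp90aa1 had 1667.44 at its finish and 507.41 at its start, against 503.91 (chr17:45566550-45570504) and 321.95 at Hsp90ab1, the constitutive Hsp90. The finish peak of Hsp90ab1 was centred 749 bp from that finish and 856 bp from an end of the neighbour Slc35b2. In the Hsp110 family, Hsph1 had 13 peaks, while Hspa4l had 2 (highest 158.75, cover 2.87%) and Hspa4 had 1 (147.18, cover 0.48%). Among the J-domain genes, Dnajb1 had 6 peaks, while Dnajb6 had 1 of 75.33, Dnaja2 had 1 of 169.54, and Dnajb5 and Dnaja4 had none.

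In the ER stress class, Hspa5, which encodes BiP, the Hsp70 of the ER, had a peak of 151.52 at the start and one of 353.23 over the finish (chr2:34775160-34777823). That peak ended 1294 bp past the finish and lay inside the span of the overlapping gene Rabepk. Dnajb9, an ER J-domain gene, had peaks of 148.15 and 69.53, and Hsp90b1, the Hsp90 of the ER, had 1 of 123.13. Dnajc10, Dnajc3 and Dnajb11, further ER J-domain genes, had highest scores of 102.52, 92.78 and 54.85, the last of them inside the gene and near the lowest score in the list. Apart from Hspa5, no member of the class had a peak within 1 kb of the finish.

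Of the other constitutive genes, 27 had a peak and 15 had none. After Hspa8 and Hsp90ab1 the highest scores were at Hspbp1 (305.63), Hspb8, a small heat-shock protein gene (298.32), Dnajc16 (289.64) and Dnajb2 (253.56). Hspb8 had 5 peaks, the highest centred 2196 bp inside the gene, and 24.2% of its span covered. The highest peak of 8 of the 29 constitutive genes was nearer to an end of another gene, among them those at Hspbp1 (33 bp from an end of Ppp6r1), Dnajb2 and Hspa9, the mitochondrial Hsp70 gene, whose peak of 216.91 lay 66 bp from an end of Etf1. This was so for 1 of 10 heat-inducible (Hspd1), 0 of 6 ER stress and 4 of 5 tissue-restricted genes with a peak. The share over all protein-coding genes was not computed. Hspa14 and Dnaja2 had start peaks of 199.29 and 169.54, and Dnajc13, a J-domain gene of endosomes, of 168.86. Scores between 51.24 and 158 were found at Dnajc17, Dnajb12, Hspa4, Dnajc14, Hspb11, Hspa12a, Dnajc5, Dnajb14, Dnajc9, Hspbap1, Dnaja3, Dnajb6, Dnajc7, Dnajc2, Dnajc1, Hspa13, Dnajc30 and Dnajc28, with Hspa4l just above. The 15 without a peak were Dnajc24, Hspa12b, Dnajc19, Dnajb5, Dnajc25, Dnajc8, Dnajc11, Dnaja4, Dnajc12, Dnajc27, Dnajc15, Dnajc21, Dnajc22, Dnajc18 and Dnajc4. A missing peak means that none passed the authors' threshold.

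Of the tissue-restricted genes, Hspa1l, a testis Hsp70 gene that lies head to head with Hspa1a, was counted through the finish peak of Hspa1a (2523.19), 3993 bp from its own nearer end. It shared the small start peak of 65.01. Dnajc6 (134.97), Hspb2 (132.79) and Hspb6 (72.68) were likewise counted through highest peaks nearer to another gene, at Leprot, 2310030G06Rik and Lin37. Dnajc5b, a testis J-domain gene, had 3 peaks of 52.81 to 78.13. Dnajb3, Hspb7, Dnajc5g, Dnajb8, Dnajb13, Hspb9, Hspa2, Hspb3 and Dnajb7 had no DLX3 peak.

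H3K4me3 was found within 1 kb of an end in 10 of 10 heat-inducible, 6 of 6 ER stress, 42 of 44 constitutive and 7 of 14 tissue-restricted genes, against 59.3% of all protein-coding genes. The 2 constitutive genes without it, Dnajc25 and Dnajc18, had no DLX3 peak either. The highest score at these marked genes had a median of 2706 in heat-inducible, 2222 in ER stress, 1676 in constitutive and 201 in tissue-restricted genes, and 1281 in all marked genes. Tissue-restricted scores ran from 129.92 to 2027.61, the highest at Hspa2, whose peak was 4997 bp wide. The mark was widest in the heat-inducible class, with a median of 3774 bp, against 2577 bp in the constitutive class and 2400 bp in all marked genes. Scores of 3100 or more (766 peaks of the list share the value 3100) were found at 4 of 10 heat-inducible genes (Dnaja1, Dnajb4, Hspd1 and Hspe1), at Hsp90b1 of the ER stress class, and at 3 of 42 marked constitutive genes (Hsp90ab1, Dnajb12 and Hspa4), against 8.13% of all marked genes. The order was not that of DLX3. Hspa1a and Hspa1b, with 2 of the 3 highest DLX3 scores of the set, had the lowest H3K4me3 scores of the heat-inducible class (169.21 and 351.43), both at the start. A further H3K4me3 peak lay over the finish of each, with 69.67 at Hspa1a and 267.87 at Hspa1b. The peak of 169.21 was centred 584 bp from an end of Hspa1a and 37 bp from an end of Hspa1l. Reads at this near-identical pair cannot always be placed, and the part of this in the low H3K4me3 scores was not tested. The 4 heat-inducible genes at 3100 were the 4 without a DLX3 peak at the finish, but Hspd1 and Hspe1 share 1 H3K4me3 peak. Dnajb1, with finish peaks, stood just below at 3073.08. Of the constitutive genes at 3100, Hsp90ab1 and Dnajb12 had finish peaks (503.91 and 149.27) and Hspa4 had none.

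The promoter sequences were searched for the heat-shock element, whose units GAA and TTC alternate, and for letters linked to other factors, on both strands. Windows of 300 bases were available from RefSeq (GRCm38.p6) for 60 members, and not for Hsp90aa1, Hsp90ab1 and Hspa8. A DLX3 peak overlapped the window in 9 of 9 heat-inducible, 6 of 6 ER stress, 19 of 33 constitutive and 3 of 12 tissue-restricted genes, against 26.1% of the 17492 protein-coding genes with a window. A pair of units, GAANNTTC or TTCNNGAA, was found in 8 of 9 heat-inducible genes (all but Dnajb1), 1 of 6 ER stress genes, 4 of 33 constitutive genes and 3 of 12 tissue-restricted genes, and in 15.7% of all genes. The element of 3 units, each spaced from the next by 2 bases, was found in 3 of 9 heat-inducible genes (Hsph1, Hspd1 and Hspe1), in 0 of 6 ER stress genes, in 1 of 33 constitutive genes (Dnajb6) and in 0 of 12 tissue-restricted genes, and in 0.595% of all genes. Any match of 3 units also counts as pairs. The homeodomain core TAATT, the kind of site that DLX proteins bind, was found in 1 of 9 heat-inducible genes (Dnajb4), 1 of 6 ER stress genes, 4 of 33 constitutive genes and 5 of 12 tissue-restricted genes (Dnajb13, Dnajc6, Hspa1l, Hspb6 and Hspb7), against 26.5% of all genes. CCAAT was found in 6 of 9 heat-inducible, 5 of 6 ER stress, 7 of 33 constitutive and 7 of 12 tissue-restricted genes, against 42.3% of all genes. TATAAA was found in 0 of 9 heat-inducible, 0 of 6 ER stress, 2 of 33 constitutive and 2 of 12 tissue-restricted genes, against 14.8% of all genes. These matches describe letters in the window and not binding.

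The sequences with the clearest elements are shown with those letters in capitals. Hsph1 and Hspe1 carry the forms of 3 or more units, and Hspb1 and Dnaja1 carry pairs, as did the Hspa1a and Hspa1b promoters above, where the pair began 104 bases before the start. In Hspb1 the pairs began 117 and 97 bases before the start, and in Dnaja1 124. In Hspe1 the element of 18 bases began 89 bases before the start, and it lies in the stretch shared with Hspd1. In Hsph1 it began at base 37 after the start of its RefSeq promoter window, which lies inside the gene span, so that the element was 198 bp from the span's own start.
Hsph1, chr5:149636287-149636316, minus strand, GRCm38.p6: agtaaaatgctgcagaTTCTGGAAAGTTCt
Hspe1, chr1:55088053-55088082, plus strand, GRCm38.p6: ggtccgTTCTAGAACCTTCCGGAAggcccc
Hspb1, chr5:135887669-135887918, plus strand, GRCm38.p6: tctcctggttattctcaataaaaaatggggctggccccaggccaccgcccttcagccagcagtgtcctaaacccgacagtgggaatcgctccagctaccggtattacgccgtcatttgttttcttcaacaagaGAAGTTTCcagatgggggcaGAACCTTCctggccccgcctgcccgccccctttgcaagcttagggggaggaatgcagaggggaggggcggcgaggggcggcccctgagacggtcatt
Dnaja1, chr4:40722218-40722467, plus strand, GRCm38.p6: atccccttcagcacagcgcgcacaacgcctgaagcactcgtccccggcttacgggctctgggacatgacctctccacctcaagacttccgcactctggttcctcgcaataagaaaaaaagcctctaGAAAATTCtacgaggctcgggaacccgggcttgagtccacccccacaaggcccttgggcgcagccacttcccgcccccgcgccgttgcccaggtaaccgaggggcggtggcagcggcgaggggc

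Other genes of protein folding were taken as a list of 34: heat-shock factors, Bag proteins, Hsp70 and Hsp90 cochaperones, crystallins, the cytosolic folding chamber and a few other genes of protein quality control. Of them 27 had a DLX3 peak over the span with 5 kb on either side, against 41.4% of all protein-coding genes and 61.3% of those with H3K4me3, and 32 had H3K4me3 within 1 kb of an end, against 59.3% of all genes. None was covered to 50% of its span, against 0.219% of all genes. Cct6a, of the folding chamber, and Stub1, a ubiquitin ligase gene that acts with Hsp70, had peaks of 136.89 and 64.06 within 1 kb of the finish, where 2.95% of all oriented genes had one. Ubb, a polyubiquitin gene, had a highest score of 347.04 and a cover of 41.6%, and Chordc1, an Hsp90 cochaperone gene, a highest score of 277.55. Hsf1 itself had 1 peak of 173.8, Hsf2 had 1 of 111.36, and Bag3, an Hsp70 cochaperone gene induced by heat, had a highest score of 98.15. Bag2, Hsf4, Serpinh1, Ahsa1, Cct4, Cct5 and Trap1 had none.

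H3K4me3 at cell type markers was used to check the label. It lay within 1 kb of an end of 7 of 7 suprabasal keratinocyte markers (scores 377.61 to 2180.19), 5 of 5 basal ones (126.84 to 1451.24), 4 of 5 fibroblast markers (78.7 to 476.21, Lum without), 2 of 4 melanocyte markers (1083.4 to 2282.68, Dct and Tyr without), 1 of 3 endothelial markers (Kdr, 328.62, Pecam1 and Cdh5 without) and 0 of 4 immune markers (Ptprc, Cd3e, Cd207 and Cd74). The part of basal or other cells in the peaks at chaperone genes was not tested.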

How the data were processed

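The authors deposited 1 peak list each for the DLX3 and H3K4me3 libraries, with chromosome, start, end, name and score per peak and nothing pooled. Per the submitters' processing notes, Bowtie 1.1.2, MACS 1.4.2 and HOMER were used with build mm10. The sources used here do not give their settings and roles, or the treatment of reads that fit several places. The unit of the deposited score is not stated in the headerless lists, so it was only ranked inside each list. The IgG library was not analysed here.

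Members, classes and lists were chosen with earlier results of these data known. Gene spans came from RefSeq GRCm38.p6 (the assembly of mm10), counting from 1, and strand from its promoter table (60 members) or, where missing, from the only end with H3K4me3 within 1 kb (10 members); 4 members stayed without orientation. An overlap needed at least 1 bp. Interval counts were tested on simulated data. No test was made, since each antibody has 1 library; counts stand beside those of all protein-coding genes. Genes named are the heat-inducible and ER stress members, close relatives, the members with the highest score or cover, and the others by name only, to account for all 74. The finish comparison and its alternatives were chosen after the data were seen. Python 3.11.15, pandas 2.3.3 and numpy 2.4.6 were used. The values of 1 gene of the protein-folding list are not reported here.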

Additional observations from a re-analysis of the deposited data

How the results depend on the processing

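Of 52 alternative values for the heat-inducible and constitutive classes, 36 stayed within 1.5 times the count above and 16 did not. For DLX3 peaks over the span with 5 kb, counting only the top 20% of peaks by score left 9 of 10 heat-inducible and 15 of 44 constitutive genes, the core list of 6 heat-inducible genes gave 6 of 6, and counting distinct peaks in place of genes gave 42 heat-inducible and 59 constitutive peaks. For spans covered to 50% or more (2 genes in each class), a limit of 25% gave 5 heat-inducible genes, a limit of 75% gave 1 in each class, peaks at or above the median score left 1 constitutive gene, the top 20% left 1 in each class, moving Hspa8 and Hspb8 to the heat-inducible list left 1 constitutive gene, and spans under 10 kb left 1 heat-inducible gene. For H3K4me3, the top 20% by score left 7 of 10 heat-inducible and 18 of 44 constitutive genes, and the core list gave 6 of 6. For finish peaks (6 of 10 heat-inducible, 3 of 42 constitutive), a window of 2 kb gave 6 and 8, and only genes with strand in the promoter table gave 5 of 9 and 1 of 33. For these finish settings and for the top 20% of peaks, the shares over all protein-coding genes are not given here. The class counts at those settings therefore have no background beside them. The counts are small, so 1 gene moves them by a large factor. No paired analysis was possible because each antibody has 1 library. Depth is unknown, so a missing peak is not a missing signal, and the 766 H3K4me3 peaks that share the score 3100 cannot be ranked.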
